A study of Mus musculus with 5 samples.

Results

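The cytokines described here are 9 secreted proteins of activated T cells: interferon gamma (Ifng), the interleukins Il2, Il3, Il4 and Il10, the colony-stimulating factors Csf1 and Csf2, oncostatin M (Osm) and leukaemia inhibitory factor (Lif). They were chosen by gene symbol, and every probe set annotated to 1 of them was taken. There were 12 such probe sets among the 12488 of the array, for 7 of its 8251 named genes. Il4 had 5 and Il10 had 2, and 1 of each belonged to the manufacturer's control probe sets. Osm and Lif had no probe set in the annotation used here and were not analysed here. Of the 10 cytokine probe sets outside the control set, 2 exceeded a filter on low signal, those of Il3 and Csf1.

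CD44-low CD8 T cells were enriched from lymph nodes of OT-1 mice, C57BL/6 animals aged 6 to 8 weeks whose T cells carry 1 transgenic receptor for an ovalbumin peptide. In culture they met that peptide on H-2Kb, together with B7-1, the ligand of CD28, on latex microspheres. Human IL-2 was in every culture, so all groups share it, and murine IL-21 was added to some. RNA was measured on 5 Affymetrix arrays. Of these, 2 came from cells given IL-21 for 48 h, 2 from cells cultured as long in its absence, and 1 from cells given it for 72 h. No 72 h culture lacking IL-21 was analysed here, and the single 72 h array has no replicate check. The labels call them biological replicates without naming separate mice or cultures. The p-values therefore cover only the spread between these samples, which may be technical. Bulk RNA cannot tell fewer cells of a type from less RNA per cell, and a transcript level says nothing of secreted protein.

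Interferon gamma is the signature cytokine of cytotoxic T cells and acts on macrophages and on antigen presentation. IL-2, made soon after antigen and CD28 signals, drives T cell proliferation, and IL-3 and GM-CSF (the product of Csf2) support blood cell progenitors and myeloid cells. IL-4 and IL-10 are made mainly by other T cell subsets and by innate cells, CSF1 supports macrophages, and oncostatin M and LIF signal through receptors that share the chain gp130. The genes are switched on by NFAT, AP-1 and NF-kappaB factors after receptor signals. Their mRNAs are short-lived, under the control of RNA-binding proteins.

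In the gene table of GRCm38.p6, Il3 and Csf2 are neighbours on chromosome 11 with no other coding gene between them. Osm and Lif are also neighbours on chromosome 11, and Il4 lies on that chromosome beside Il13. Il2 lies on chromosome 3 beside Il21, Csf1 elsewhere on chromosome 3, Ifng on chromosome 10 and Il10 on chromosome 1. Promoters are shown for Il3, a member past the filter, for its neighbour Csf2, whose 72 h difference had the opposite sign, and for Il2, whose name a control probe set carries that was lowest at 72 h. Each is the RefSeq sequence from 250 bases before to 50 after the gene's start, on the minus strand of GRCm38.p6 and written 5′ to 3′. They lie at chr3:37125905-37126204 (Il2), chr11:54267230-54267529 (Il3) and chr11:54249850-54250149 (Csf2). Capitals mark the NFAT core motif GGAAA or its reverse complement.
Il2: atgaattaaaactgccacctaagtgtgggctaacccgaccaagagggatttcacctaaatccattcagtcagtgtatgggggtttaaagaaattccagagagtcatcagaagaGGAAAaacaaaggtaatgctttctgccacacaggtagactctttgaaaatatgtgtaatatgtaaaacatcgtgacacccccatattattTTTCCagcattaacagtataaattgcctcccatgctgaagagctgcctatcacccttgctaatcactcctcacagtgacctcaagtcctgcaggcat
Il3: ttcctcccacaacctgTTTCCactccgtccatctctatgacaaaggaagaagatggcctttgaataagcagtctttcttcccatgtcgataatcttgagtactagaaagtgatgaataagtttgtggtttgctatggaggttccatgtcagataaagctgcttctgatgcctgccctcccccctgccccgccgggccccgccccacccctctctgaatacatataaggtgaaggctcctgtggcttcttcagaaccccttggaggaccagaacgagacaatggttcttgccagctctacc
Csf2: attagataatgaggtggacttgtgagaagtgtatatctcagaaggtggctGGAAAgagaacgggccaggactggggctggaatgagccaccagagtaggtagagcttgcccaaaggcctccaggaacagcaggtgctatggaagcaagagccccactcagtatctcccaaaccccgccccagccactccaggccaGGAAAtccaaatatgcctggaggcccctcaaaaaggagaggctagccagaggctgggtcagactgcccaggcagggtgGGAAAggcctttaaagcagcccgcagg
The core was found at 2 places in the Il2 window, 1 in that of Il3 and 3 in that of Csf2. Among 32851 promoters of this length 61.3% held it on either strand, so its presence is common. The TATA box TATAAA was in the Il2 window 31 bases before the start and in the Ifng window 30 bases before, and in 13.6% of all. The AP-1 motif TGANTCA (7.81% of all) was in the Lif window only, among the 7 genes with a promoter sequence. The STAT motif TTCNNNGAA (8.30%) was in the Ifng window and in 1 of the 2 windows of Il4. The motifs were searched on both strands. The STAT match of Il4 overlapped a GGAAA match in the same window. A match is a description of these letters and shows no binding.

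The first measurement was whether these probe sets stood above the background of their arrays. Most did not: of the cytokine genes, only Il3 and Csf1 exceeded on every array the median of a reference of genes expressed in other organs. No detection calls were given, so the reference was 87 probe sets for 64 genes of liver, pancreas, muscle, brain, eye, germ cells and other organs. The reference median was 3.72 and 3.28 signal units on the 48 h arrays without IL-21, 6.35 and 4.66 on those with it, and 3.99 at 72 h. It sat at the 23.0th to 25.3th percentile of all probe sets. Some reference probe sets were bright (18 of 87 exceeded the filter), so their 95th percentile was high, between 47.1 and 102, and no cytokine probe set of the 12 exceeded it on any array.

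Il3 and Csf1 were above the reference median on all 5 arrays. Il3 was at 2.51 to 10.8 times that median and above 75.9% to 93.1% of the reference probe sets, and Csf1 at 4.88 to 7.51 times and above 86.2% to 90.8%. Il2 was below the median on every array, at 0.192 to 0.571 times. Csf2 was above it on the 72 h array only, and Ifng on 3 arrays. On the 48 h arrays labelled replicate 1 Ifng reached 4.76 times the median without IL-21 and 3.40 times with it. There it was above 86.2% and 82.8% of the reference probe sets, within the range of Il3. On its remaining arrays it was at 0.426 to 1.45 times. For Il2 and Csf2 a difference between arrays is one between signals near background, and Ifng was near background on those remaining arrays.

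**Figure D1:**
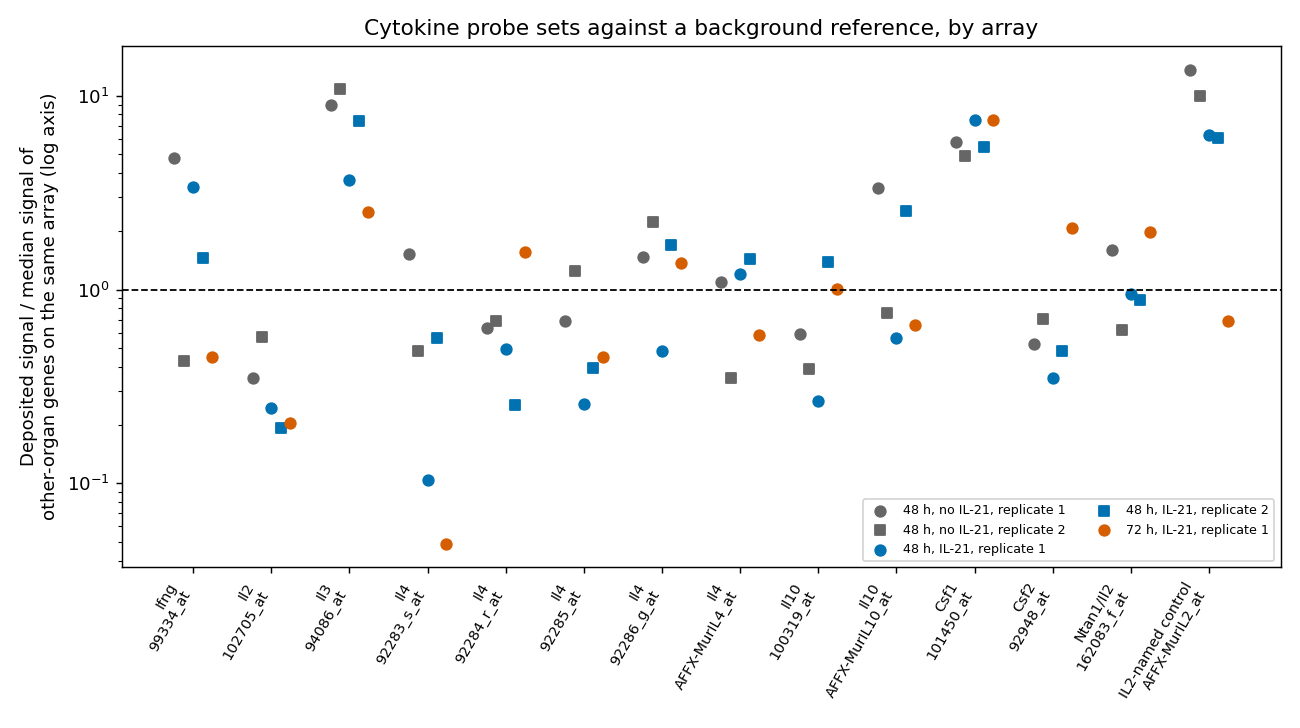
Deposited signal of each cytokine probe set divided by the median signal of other-organ genes on the same array (log axis; the dashed line is that median), 1 point per array. Il3 and Csf1 lie above the line on all 5 arrays, the Il2 probe set below it on all 5, and the control probe set named for IL2 falls below it at 72 h only.

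Il3, the multi-lineage colony-stimulating interleukin, had its highest normalised signals without IL-21 and its lowest at 72 h. On quantile-normalised arrays the signal was 37.9 and 47.8 at 48 h without IL-21, 18.5 and 31.5 at 48 h with it, and 12.3 at 72 h. The 3 groups did not overlap after this normalisation. In deposited signals the 48 h groups overlapped, with 33.25 and 35.4 without IL-21 and 23.4 and 34.7 with it. At 48 h the log2 difference between IL-21 and none was -0.82 (SE 0.36, 95% interval -1.70 to 0.06, adjusted p = 0.967 in limma). It was -1.04 between the arrays numbered 1 and -0.60 between those numbered 2. From 48 to 72 h with IL-21 it was -0.98 (SE 0.44, 95% interval -2.06 to 0.10, adjusted p = 0.220 in limma). Neither passed 0.05 over the 7453 probe sets tested. Without any scaling between arrays the 72 h difference was -1.38 and passed (adjusted p = 0.0478 in limma). In that setting 2128 of the 7453 probe sets passed, 2027 of them lower, and the median of all was -0.58. The call is therefore not particular to Il3. The 72 h difference of Il3 was -0.59 without the second IL-21 array at 48 h and -1.36 without the first. The 48 h difference was -1.20 and -0.43 without these arrays, in that order, so single arrays set much of its size.

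The genes whose profile over the 5 arrays lay nearest to that of Il3, by root mean square difference of centred log2 values among 6707 named probe sets, were Il2ra (0.189), Spata5 (0.217) and Slc7a6 (0.220). Il2ra, the alpha chain of the IL-2 receptor, had 154 and 267 without IL-21, 108 and 163 with it, and 68.9 at 72 h. Slc7a6, an amino acid transporter, had 35.4 and 36.3, then 20.4 and 23.96, and 9.26. They were picked for this likeness among 6707 candidates over only 5 arrays, and are a description.

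Il2 gave discordant readings. Its annotated probe set had deposited signals of 1.30 and 1.87 at 48 h without IL-21, 1.55 and 0.897 with it, and 0.816 at 72 h, at or below the 15.3th percentile of every array. A second probe set, annotated to both Ntan1 and Il2, had 5.91, 2.02, 6.00, 4.11 and 7.87 in the same order and is given no gene here. Another, a control, carries MurIL2 in its name in the deposited table but no gene in the annotation, and it was added after its values were seen. It had 50.6 and 32.7 at 48 h without IL-21, 40.01 and 28.2 with it, and 2.74 at 72 h. On 4 arrays it was 6.04 to 13.6 times the background reference and at 72 h 0.688 times.

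The 72 h value of the probe set named for IL2 was thus below each 48 h value, by a log2 difference of -2.68 against the IL-21 arrays (normalised 28.5 to 4.44, SE 0.42, 95% interval -3.70 to -1.66). In limma over all 12488 probe sets, controls included, the adjusted p was 0.0300, and 4.71% of all probe sets were called (3.07% called lower). This rests on 1 array at 72 h. The call was lost when any of the 4 arrays at 48 h was left out, while the difference stayed between -2.79 and -2.57. With an offset of 16 signal units the difference was -1.19 and did not pass (adjusted p = 0.0881 in limma). The call was also lost with scaling on hybridisation controls (-2.445, adjusted p = 0.0501 in limma), with only the groups compared, and without the variance trend. At 48 h the difference between IL-21 and none was -0.81 (SE 0.34, adjusted p = 0.956 in limma), -0.88 and -0.74 within the replicate numbers. Which part of a transcript each probe set detects was not examined here, so the fall is that of this probe set.

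Ifng differed more between replicates than between the 48 h groups. The normalised signal was 20.9 and 3.29 at 48 h without IL-21, 17.1 and 7.63 with it, and 3.44 at 72 h. The arrays numbered 1 were high and those numbered 2 low, with and without IL-21, so the groups overlapped at 48 h. The log2 difference between IL-21 and none was 0.46 (SE 0.94, 95% interval -1.83 to 2.75), and -0.29 and 1.21 within the numbers. Its sign turned when 1 array was left out, over a range of -0.87 to 1.79. The 72 h array was below both 48 h arrays with IL-21, with log2 differences of -2.31 and -1.15, but not below the second array without it. The deposited signals, 17.7, 1.40, 21.6, 6.75 and 1.80 in that order, spanned 0.426 to 4.76 times the background reference.

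Genes that respond to interferon gamma had a higher median on the arrays numbered 1, as Ifng did. Of 28 listed, 22 were on the array and 19 exceeded the filter. The median of their centred log2 signals was 0.12 and 0.11 on the arrays numbered 1, -0.24 and -0.20 on those numbered 2, and 0.03 at 72 h. At 72 h the list was therefore within the 48 h range, whereas Ifng was near its lowest. None of the 19 passed in limma in either comparison as fitted here, though Tap2 passed at 72 h with a filter at the 60th percentile (adjusted p = 0.0359 in limma) or an offset of 16 signal units (0.0475), and Gbp3 with scaling on hybridisation controls (0.0459). Without scaling Gbp2 passed at 48 h (0.0429). At 48 h 9 were higher and 10 lower (median log2 difference -0.00), and at 72 h 10 and 9 (0.03). Over all 7453 probe sets the medians were -0.01 and -0.01. Gbp2, an interferon-induced GTPase, differed by 0.33 at 48 h (SE 0.13) and Irgm1, another, by 0.62 (SE 0.28). At 72 h the peptide transporter subunit Tap2 differed by 0.89 (SE 0.21, adjusted p = 0.0513 in limma), Gbp3 by 1.28 (SE 0.37) and Ly6e by 0.53 (SE 0.15), with another Ly6e probe set at -0.73.

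**Figure D2:**
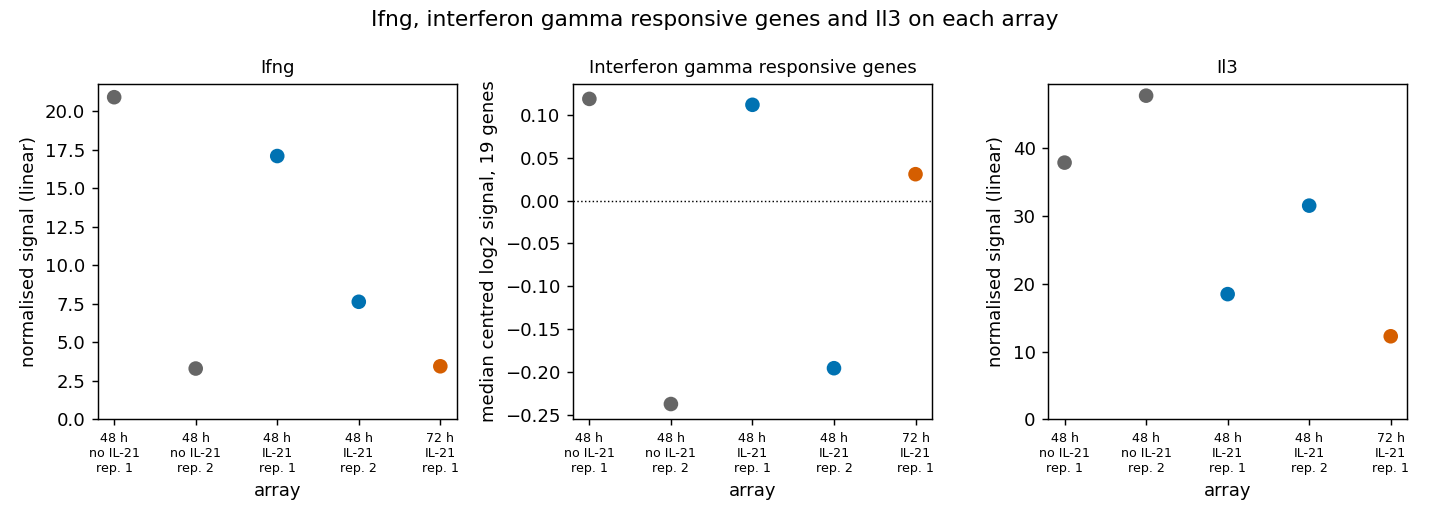
Normalised signal of Ifng and Il3 (linear axes from 0) and the median centred log2 signal of 19 interferon gamma responsive genes, 1 point per array; the grey points are 48 h without IL-21, blue 48 h with it, orange 72 h with it. Ifng and the median of the responsive genes are higher on replicate 1 than on replicate 2 in both 48 h groups, though not each gene is (Ly6e and Socs1 are lower), and Il3 is lowest at 72 h (12.3).

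Csf1, the macrophage growth factor, had no difference that passed in either comparison. Its normalised signal was 25.1 and 22.2 at 48 h without IL-21, 36.4 and 24.2 with it, and 35.1 at 72 h. The 48 h groups overlapped. The log2 difference was 0.33 with IL-21 at 48 h (SE 0.31, 95% interval -0.44 to 1.10, adjusted p = 0.985 in limma) and 0.24 at 72 h (SE 0.38, 95% interval -0.70 to 1.18, adjusted p = 0.744 in limma). The 72 h difference changed sign, to -0.05, without the second IL-21 array at 48 h, and to -0.22 without scaling. The intervals allow changes of up to about 1 log2 unit. Its nearest profiles were those of Rae1 (0.0409), Slc44a4 (0.0516) and Atp5d (0.0529).

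Csf2 was at background at 48 h and higher on the 72 h array. Deposited signals were 1.94 and 2.30 without IL-21, 2.23 and 2.24 with it, and 8.30 at 72 h, which is 2.08 times the background reference on that array. The log2 difference at 72 h was 1.62 (SE 0.45, 95% interval 0.53 to 2.72). In the fit without a filter, where 4.76% of 12422 probe sets were called, its adjusted p was 0.113 in limma, the smallest of the 10 cytokine probe sets. The difference was 1.68 and 1.57 against either 48 h array, and between 0.48 and 2.27 over 13 alternatives. The 72 h signal was at the 34.8th percentile of its array. At 48 h Csf2 differed by -0.27 with IL-21, and by 0.04 without scaling. Its neighbour Il3 had the opposite sign at 72 h.

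Il4 and Il10 were near background, and their probe sets disagreed. The 4 Il4 probe sets outside the control set had deposited signals between 0.195 and 7.90. All 4 were lower with IL-21 at 48 h, by log2 differences from -0.90 to -0.43, while the control probe set of Il4 was higher by 0.80. At 72 h they differed by -0.67, 1.36, 0.21 and 0.34, and the control probe set by -0.88. The probe set at 1.36 had 2.35, 2.25, 3.15, 1.19 and 6.22 over the arrays in order. Il10 had signals of 2.20, 1.27, 1.68, 6.51 and 4.005 on its probe set, and 12.4, 2.48, 3.56, 11.8 and 2.61 on the control probe set. At 48 h those differed by 0.38 and -0.24, with intervals from -0.94 to 1.69 and from -2.14 to 1.65. No direction can be read for either gene.

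Beside the array as a whole, no cytokine probe set of the 10 passed the test in either comparison. In the comparison of IL-21 with none at 48 h 0 of 10 passed, in limma with the filter (2 tested) or without it, where 0% of all probe sets passed and 4.39% had an unadjusted p under 0.05. In normalised values the arrays of the groups did not overlap for 5 of the 10, against 33.4% of all probe sets (33.8% of those past the filter). These 5 were lower with IL-21, against 17.5% of all. They were Il2, Il3, Csf2 and 2 of Il4, and all except Il3 are near background. In deposited signals the groups overlapped for these, except for an Il4 probe set with 2.57 and 4.07 without IL-21 and 1.63 and 1.84 with it. The control probe set of Il4, which is outside the 10, did not overlap either and was higher with IL-21, by 0.80. The difference was under 0 for 7 of 10, with a median log2 difference of -0.43 against -0.01 for all 12422. At 72 h 0 of 10 passed without the filter, where 4.76% of 12422 did, and 0 of the 2 tested with the filter, where 11.2% of 7453 did (4.04% higher and 7.12% lower). The 72 h array lay outside the range of the IL-21 arrays at 48 h for 6 of the 10, against 74.7% of all. Of the 10, 4 had a difference under 0 and 6 over 0 (median 0.23 against -0.01). The 10 are not independent, since 4 belong to Il4. Both comparisons use the same 2 arrays at 48 h with IL-21, so a low value there lowers the first difference and raises the second.

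**Figure D3:**
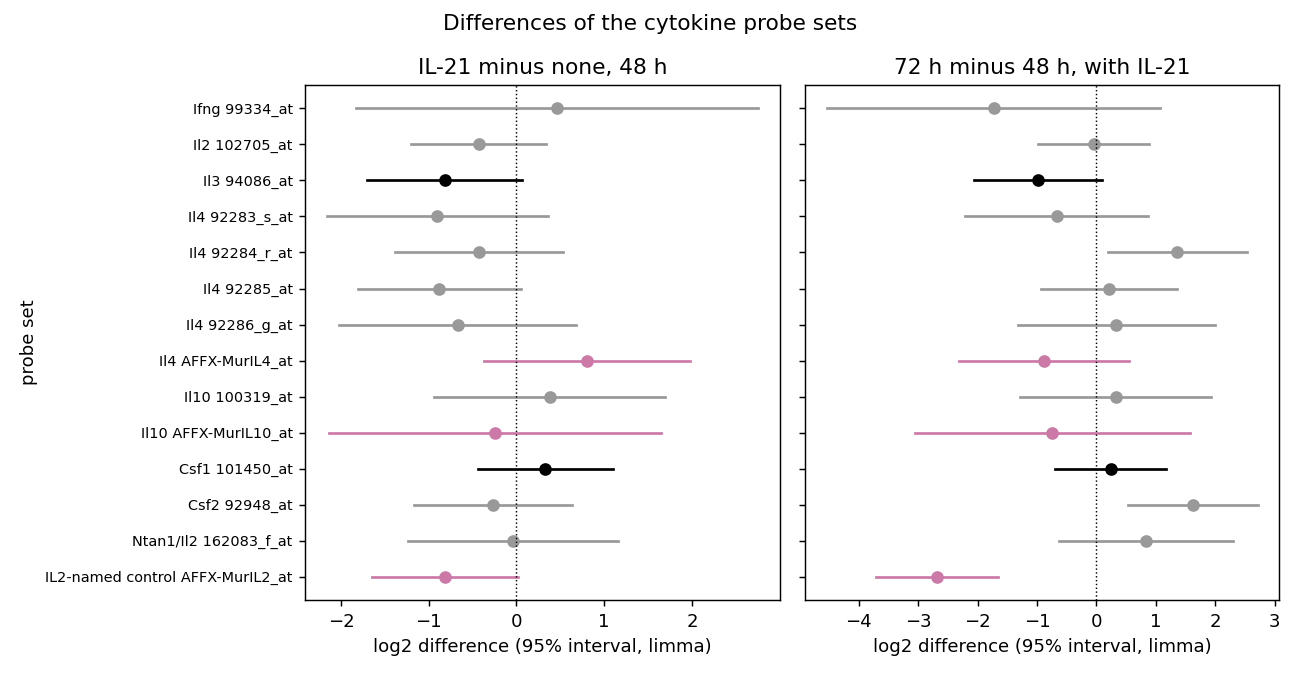
Log2 differences with 95% intervals from limma for the 12 cytokine probe sets and the pair that name IL2 without a single annotated gene; black, past the filter; grey, below it; pink, control probe sets. All intervals at 48 h include 0, and at 72 h those of Csf2, 1 Il4 probe set and the IL2-named control do not. The intervals are not adjusted for the number of probe sets. At 72 h 2400 of all 12422 probe sets had an unadjusted p under 0.05 in limma without the filter, so such intervals were common.

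Among the receptors of these cytokines 2 rose at 72 h, Ifngr1 and Il2rb. Of 15 receptor genes listed 14 were on the array and 9 exceeded the filter; at 72 h 8 were higher and 1 lower, with 2 called higher in limma, 0 lower and a median log2 difference of 1.00. Of all 7453 probe sets 4.04% were called higher and 7.12% lower, with a median of -0.01. Ifngr1, the ligand-binding chain of the interferon gamma receptor, had 51.6 and 45.4 at 48 h without IL-21, 32.1 and 37.0 with it, and 115 at 72 h (log2 difference 1.74, SE 0.27, adjusted p = 0.0181 in limma). Il2rb, the beta chain shared by the IL-2 and IL-15 receptors, had 209 and 272, then 188 and 217, and 457 (1.18, SE 0.23, adjusted p = 0.0295 in limma). The Il2rb call depended on the scaling, with 0.89 (adjusted p = 0.137 in limma) for arrays centred on their medians and 0.48 (adjusted p = 0.189) without scaling. Il10rb, a chain of the IL-10 receptor, differed by 1.00 without passing (SE 0.34). At 48 h 3 receptors were higher and 6 lower with IL-21 and none passed, among them Ifngr1 (-0.49, SE 0.22) and Il2ra (-0.62, SE 0.33).

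Transcription factors that act on cytokine genes were called lower at 72 h in 4 cases of 26 tested, and higher in 0, where 7.12% of all 7453 probe sets were called lower and 4.04% higher. Irf4, induced by T cell receptor signals, had 1884 and 1903 at 48 h without IL-21, 1858 and 2010 with it, and 346 at 72 h (log2 difference -2.48, SE 0.12, adjusted p = 0.00678 in limma). Egr2, an early growth response factor, differed by -1.66 (SE 0.25), Fosl1, an AP-1 subunit, by -1.92 (SE 0.44), and Nfatc1, an NFAT factor, by -0.84 (SE 0.17). Their adjusted p lay between 0.0181 and 0.0465 in limma. Of all 26, 13 had a difference over 0 and 13 under 0 (median -0.00). At 48 h 10 were higher and 16 lower with IL-21 and none passed, with Nfatc3 at 0.43 (SE 0.19) and Stat6 at -0.30 (SE 0.15).

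Of 12 genes of cytokine mRNA turnover, 4 fell at 72 h and none rose, where 7.12% of all 7453 probe sets fell and 4.04% rose, with 10 differences under 0 and a median of -0.37. They were Ncl, nucleolin (-1.10, SE 0.12), Hnrnpd, the AU-rich element binding protein AUF1 (-0.97, SE 0.15), Elavl1, the stabilising protein HuR (-0.96, SE 0.17), and Ybx1 (-0.42, SE 0.09). Their adjusted p lay between 0.0104 and 0.0395 in limma. At 48 h 7 were higher and 5 lower, with Ybx1 at 0.34 (SE 0.07) and Dhx36, a helicase, at 0.48 (SE 0.21), and none passed. Of 19 other interleukins and growth factors on the array 5 exceeded the filter and none passed. Ebi3 differed by -0.51 at 48 h (SE 0.27; another probe set by 0.77) and Tgfb1 by -0.19 (SE 0.15), and at 72 h Il16 by 0.70 (SE 0.40), Csf3 by 0.51 (SE 0.44) and Tgfb1 by -0.10 (SE 0.19). Without either of the 2 IL-21 arrays at 48 h, 0 of the 7453 probe sets passed at 72 h, so none of these calls held there. The same was true without the variance trend. Other settings ended some calls too: of 15 alternatives Ybx1 lost its call in 10 (adjusted p up to 0.666 in limma), and Nfatc1 and Elavl1 in 7 each, and Fosl1 in 9 of 14. Irf4, Egr2 and Ifngr1 lost theirs only in the 3 settings named first.

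**Figure D4:**
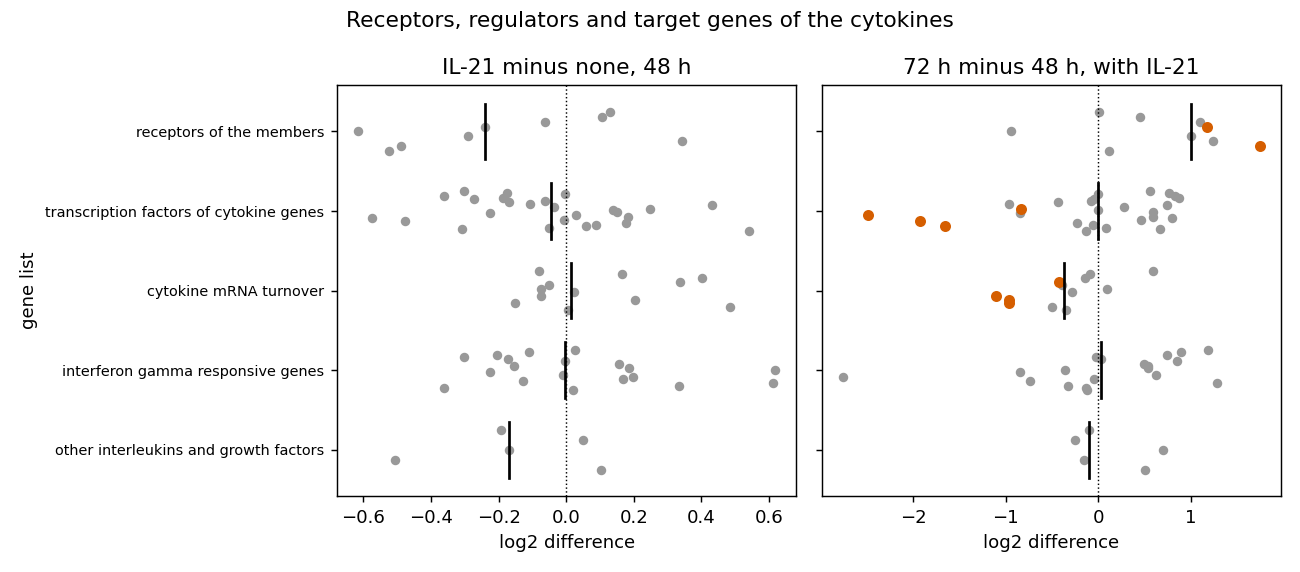
Log2 difference of each tested gene of 5 lists in both comparisons; orange points passed an adjusted p of 0.05 in limma, grey did not, and black bars are list medians. At 48 h no gene passed; at 72 h 2 receptors rose, and 4 transcription factors and 4 mRNA turnover genes fell.

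Several of these cytokines are known products of other cells, so markers of those cells were measured. All 14 T cell markers on the array exceeded the filter, at a median percentile of 94.5 to 96.4, so the labelled cell type had its defining transcripts. At 72 h 4 of these 14 rose in limma (Cd7, Cd3g, Cd3d and Thy1), where 4.04% of all probe sets did. By sign 9 were higher and 5 lower, the 5 including Cd8a (log2 difference -0.51, SE 0.15) and Cd5 (-0.52, SE 0.285). The list's summed normalised signal was 7838 to 9196 over the 48 h arrays and 11615 at 72 h. Of 14 basophil and mast cell markers 2 exceeded the filter and 0 were above the reference's 95th percentile; their summed normalised signal was 126 to 155 at 48 h without IL-21, 123 to 130 with it and 146 at 72 h. Of 9 CD4 and Th2 markers 4 exceeded the filter, with sums of 128 to 144, 106 to 113 and 120. Of 27 myeloid and dendritic cell markers 13 did, with sums of 1429 to 1476, 1445 to 1558 and 1374. Batf3 alone gave 515 to 664, 612 to 752 and 308 of these sums. The median centred log2 signal of the 13 was instead highest at 72 h, at 0.39 against -0.20 to 0.16 over the 48 h arrays. By sign 7 of the 13 were higher at 72 h and 6 lower. Of 12 B cell markers 7 exceeded the filter, with sums of 551 to 823, 629 to 786 and 1285. Most of that 72 h sum came from Ighm (868) and Cd37 (254), and the other tested B cell markers lay between 17.65 and 38.0. By sign 5 of the 7 were higher at 72 h and 2 lower. Of 12 stromal markers 4 exceeded the filter, with 294 to 322, 255 to 308 and 341, and of 6 NK cell markers 0, with 48.2 to 51.4, 38.0 to 55.2 and 61.7. At 72 h Ccr4 fell among the 4 tested CD4 and Th2 markers, H2-Ab1 rose and Batf3 fell among the 13 myeloid ones, and Cd37 rose among the 7 B cell ones, where 11.2% of all probe sets were called in either direction. The part of such cells in the cytokine signals was not tested.

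Before scaling, the trimmed mean signal was 105 and 106 on the 48 h arrays with IL-21 and between 65.3 and 75.4 on the other 3. All normalised values are therefore relative to the bulk of probe sets. In the unscaled values the median over the tested probe sets was 0.57 higher with IL-21 at 48 h on the log2 scale. The mean of Il3 was still lower there (-0.26), though its 48 h groups overlapped. At 72 h that median was -0.58 without scaling and -0.17 with arrays centred on their medians, and at 48 h it was -0.18 with scaling on hybridisation controls.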

How the data were processed

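The deposited intensity values are probe set signals on a linear scale, made with MAS5 per the submitters' processing notes; its version and scaling target are not given there. Arrays were not on a common scale, so log2 values, after adding an offset of 1.53 (the 10th percentile of all values), were quantile normalised. Probe sets above the 40th percentile of mean log2 value were tested (7453 of 12422 that are not controls); the others are described from a fit without the filter, and control probe sets from a fit over all 12488. The offset understates differences of dim probe sets. Tests were limma 3.58.1 in R 4.3.3: 3 group means over 5 arrays (2 residual degrees of freedom), trended empirical Bayes, two-sided, Benjamini-Hochberg over all probe sets at 0.05. The lone 72 h array is assumed to vary like the others. The number of arrays limits the precision. Genes came from platform annotation, updated through Entrez identifiers to GRCm38.p6 (10817 of 10833 singly named probe sets matched), and promoters from RefSeq (7 of 9 genes). Named genes were all cytokines, of each context list up to 3 by smallest p at 72 h and 2 at 48 h (a gene stands for its brightest probe set), plus the nearest profiles; Fosl1 and Ybx1 at 72 h were added after their values were seen. The cytokines and lists were chosen with earlier results of these data known. The procedure was tested on simulated data with a spread common to all probe sets. That test required only that planted differences were recovered on average, so it does not bear on error rate or power. Every per-sample column was matched by accession.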

Additional observations from a re-analysis of the deposited data

How the results depend on the processing

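At 48 h 0 probe sets passed in limma in all settings except 2: 696 without scaling between arrays, 11 with the replicate number as a block. At 72 h 832 passed. That count was 2128 without scaling, 1860 with the replicate block, 425 with only the groups compared and 0 without a variance trend, and 0 to 453 over fits that each lacked 1 array. The share called higher at 72 h, 36.2%, was 18.1% with arrays centred on their medians, 4.75% without scaling, 49.0% with scaling on hybridisation controls and 46.2% with the block. Of the cytokines, Il3 and Csf1 were tested in each setting but the stricter filter, and the other 8 probe sets only without a filter. None of those tests passed at 48 h, and 1 did at 72 h, Il3 without scaling. With the replicate block Il3 and Csf1 did not pass; no label ties the numbers to a mouse or day, and the deviations of equally numbered 48 h arrays correlated at 0.361 over probe sets, a hint from the data. With the block Il3 differed by -0.70 at 72 h, and the IL2-named control by -2.82 (adjusted p = 0.00653 in limma). The block also gave calls at 72 h to Il10rb (0.73, adjusted p = 0.0360 in limma), Tap2 (0.85, 0.0198), Gbp3 (1.02, 0.0248) and Ly6e (0.63, 0.00515). Without scaling Dhx36, Nfatc3, Ybx1 and Gbp2 passed at 48 h and Tgfb1 at 72 h (-0.83). Over 14 alternatives the 72 h difference of the IL2-named control stayed negative and lost its call in 8. Il3 stayed negative in all 14 in both comparisons. Signs turned for Csf1 at 72 h (-0.22 without scaling, -0.0534 to 0.534 with 1 array fewer, the low end without the second IL-21 array), for Ifngr1, Stat6, Ebi3 and Tgfb1 at 48 h without scaling (0.0843, 0.259, 0.0363 and 0.402), for Csf3 at 72 h without scaling (-0.00367) and for Tgfb1 at 72 h (-0.234 to 0.0422 with 1 array fewer, the high end without the first IL-21 array). Against the lowest 20% of all probe sets as reference, 9 of 10 cytokine probe sets exceeded its 95th percentile on at least 1 array. That cutoff lies inside the lowest 20% of each array, so most probe sets of any kind exceed it. The count therefore does not show detection. With other-organ genes as reference the count was 0. The filter at the 60th percentile left no cytokine probe set to test. Scaling on hybridisation controls ended the 72 h calls of Ncl, Hnrnpd, Elavl1, Nfatc1 and Ybx1 (adjusted p 0.0540 to 0.666 in limma). Dim signals limit Ifng, Il2, Il4, Il10 and Csf2. Among these probe sets outside the control set, signs also turned over 13 alternatives. At 48 h this held for Ifng, Csf2 and Il10 (-0.311 to 1.07). At 72 h it held for Il2 (-0.222 to 0.188), Il10 (-0.366 to 1.015) and 1 Il4 probe set (-0.2415 to 0.917).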
